A study of Mus musculus with 9 samples.

Results

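The 10 genes described here make bile acids from cholesterol, conjugate them and sense them in mouse liver. They were chosen by function, but with earlier results of these data already known. The sterol hydroxylases are Cyp7a1, Cyp7b1, Cyp8b1 and Cyp27a1, and the ring-modifying enzymes are Hsd3b7 and Akr1d1. The conjugating enzymes are Slc27a5 and Baat, and the nuclear receptors are Nr1h4 (FXR) and Nr0b2 (SHP). All 10 were found among the 23337 genes of the count table, and all 10 were among the 13141 genes with enough reads to be tested.

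The study sequenced polyadenylated RNA from whole liver of 9 C57BL/6 mice and asked what loss of protease-activated receptor 2 (PAR2, encoded by F2rl1) does on a high-fat diet, with the transcription factor HNF4A named in its title. Every mouse began the diet at 6 to 8 weeks of age and stayed on it for 16 weeks, so no group was on a control diet. The 3 groups of 3 mice were PAR2fl/fl, whose receptor gene is flanked by loxP sites (called WT by the labels and here), PAR2dHep, in which the deletion is in hepatocytes (dHep), and PAR2 KO, a whole-body deletion (KO). The Cre line behind dHep, the sex of the mice, the time of day at which tissue was taken and any batch were not given in the sources used here.

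Bile acids are made in hepatocytes along a classical route, opened by Cyp7a1 at the sterol ring, and an alternative route, opened by Cyp27a1 at the side chain and continued by Cyp7b1. Cyp8b1 adds the hydroxyl group that makes cholic acid, so its activity sets the balance between cholic acid and the chenodeoxycholic and muricholic acids. Bile acids activate FXR, which induces SHP in liver and Fgf15 in the intestine, and both of these restrain Cyp7a1; Fgf15 acts through the hepatocyte receptor Fgfr4 with its partner Klb.

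Libraries held 18683660 to 30509242 reads assigned to genes. F2rl1 had 17, 27 and 28 reads in WT, 2, 8 and 0 in dHep, and 71, 103 and 76 in the KO-labelled libraries, so the whole-gene count was not lower there and each direction given for that group rests on its label. Levels are given as CPM, the reads of a gene per 1e+06 assigned reads after scaling between libraries. Hepatocyte markers (11 genes, all with reads in each group) summed to 106800 to 112300 CPM in WT, 117500 to 166800 CPM in dHep and 118600 to 132000 CPM in the KO-labelled libraries. Alb alone made up most of each sum, with overlapping ranges of 76180 to 81090, 76610 to 117500 and 67680 to 81020 CPM in the same order. WT replicate 1 and dHep replicate 2 stood apart by pancreatic acinar transcripts (452.5 and 1651 CPM over 12 genes, against at most 6.347 CPM in the other libraries), and dHep replicate 2 also by skeletal muscle transcripts (658.2 CPM, against at most 60.23). KO replicate 1 stood apart by intestinal transcripts: Sis at 75.99 CPM, Vil1 at 39.21 CPM, Slc5a1 at 31.99 CPM and Epcam at 16.98 CPM, against at most 0.0452, 1.275, 2.296 and 3.289 CPM in the other 8 libraries, and Cdx2 and Cdx1 had reads in it alone. Whole liver was sequenced, so a change in the number of cells of a type and a change in RNA per cell cannot be told apart.

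Cyp7b1 and Cyp27a1, the enzymes of the alternative route, were the members that rose against WT both in dHep and in the KO-labelled libraries under every alternative analysis that was run. In dHep against WT, 5 of the 10 members rose (Cyp7a1, Cyp7b1, Cyp27a1, Akr1d1 and Slc27a5) and 0 fell at an adjusted p under 0.05 in edgeR's quasi-likelihood test, where 24.3% of all tested genes passed in either direction and 12.4% rose. In the KO-labelled libraries against WT, 3 rose (Cyp7b1, Cyp27a1 and Hsd3b7) and 1 fell (Akr1d1), where 43% of all tested genes passed (20.9% rose and 22.1% fell), so that count is near the background and says nothing about the members as a group. Between the KO-labelled libraries and dHep, 1 member was higher in the former (Cyp7b1) and 2 were lower (Cyp7a1 and Akr1d1), where 9.62% of all tested genes passed (4.23% higher and 5.39% lower). The median log2 fold change of the 10 members was 0.72, 0.36 and -0.09 in these comparisons, in that order, and that of all tested genes was 0.02, -0.01 and -0.02. The comparisons share libraries, so their counts are not independent of each other.

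These member counts moved with single libraries, and some counts over all tested genes moved with the same libraries. In dHep against WT, 3192 called genes became 1952, 1438 and 1359 without WT replicate 1, 2 and 3. In the KO-labelled libraries against WT, 5653 became 3835 to 6547. Between the KO-labelled libraries and dHep, 1264 became 2809 without dHep replicate 3, and 419 and 386 without KO replicate 2 and 3. It became 807, 692 and 722 without WT replicate 1, 2 and 3. In dHep against WT, the number of called members went from 5 to 2 without WT replicate 1, 2 or 3, and to 3 without KO replicate 3, dHep replicate 2 or dHep replicate 3. With both WT replicate 1 and dHep replicate 2 left out it was 3. Without KO replicate 1 the member counts were 4, 3 and 2 in dHep against WT, in the KO-labelled libraries against WT and between the KO-labelled libraries and dHep. In the KO-labelled libraries against WT, 4 became 2 without WT replicate 2, WT replicate 3 or KO replicate 2, and it was 4 with both WT replicate 1 and dHep replicate 2 left out. Between the KO-labelled libraries and dHep, 3 became 5 without dHep replicate 1 or dHep replicate 3, 1 without dHep replicate 2, KO replicate 2 or KO replicate 3, and 2 with both WT replicate 1 and dHep replicate 2 left out.

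**Figure D1:**
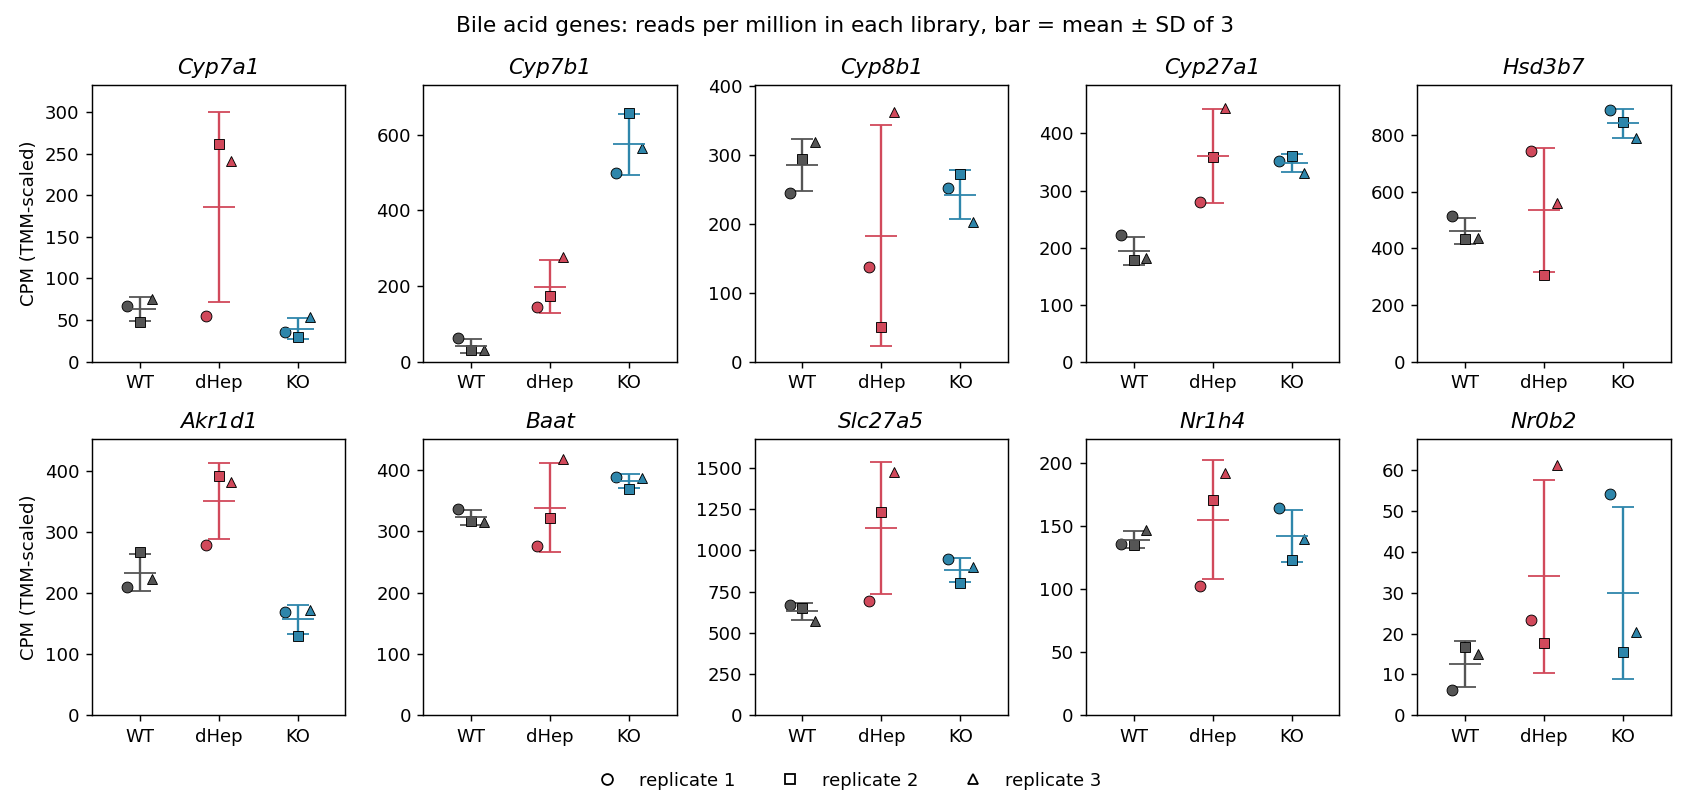
CPM (vertical axes from 0, one scale per gene) of the 10 genes in each library of WT, dHep and the KO-labelled libraries; points are libraries, the long bar is the mean and the whiskers are the SD of 3. Cyp7b1 steps up from WT to dHep to KO without overlap, while the dHep points of Cyp7a1 and Cyp8b1 spread from 54.36 to 261.4 and from 49.86 to 362.2 CPM.

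Cyp7a1 encodes cholesterol 7-alpha-hydroxylase, the rate-limiting enzyme of the classical route, and lies at chr4:6265612-6275631 of mm10 on the minus strand, with 6 exons. It stood at 67.47, 47.93 and 75.55 CPM in the WT libraries, 54.36, 261.4 and 241.6 CPM in dHep, and 35.84, 29.51 and 54 CPM in the KO-labelled libraries. dHep replicates 2 and 3 were above every WT library, while dHep replicate 1 lay inside the WT range, and the KO-labelled libraries overlapped WT. The mean was 63.65 ± 14.2 CPM (SD, n = 3) in WT, 185.8 ± 114.2 CPM in dHep and 39.78 ± 12.71 CPM in the KO-labelled libraries. The rise in dHep, 1.54 ± 0.49 (the log2 fold change, given below as the log2 difference, ± SE), had an edgeR adjusted p of 0.0462 and did not pass under 12 of 17 alternatives (range 0.00207 to 0.174), among them leaving out any library other than dHep replicate 1, and 0.174 with both WT replicate 1 and dHep replicate 2 left out. In the KO-labelled libraries the difference from WT was -0.68 with a 95% interval from -1.77 to 0.41 and did not pass (edgeR adjusted p = 0.279; range over alternatives 0.0389 to 0.523). It passed with only those 2 groups in the fit (edgeR adjusted p = 0.0389) and without dHep replicate 1 (0.0439). Against dHep, Cyp7a1 was 4.67-fold lower in the KO-labelled libraries (edgeR adjusted p = 0.0264, range over alternatives 0.00114 to 0.105), and the highest of them, at 54 CPM, lay just under the lowest dHep library. That call ended without KO replicate 1 (edgeR adjusted p = 0.071), KO replicate 2 (0.105), KO replicate 3 (0.0667) or dHep replicate 2 (0.0658), and with both WT replicate 1 and dHep replicate 2 left out (0.097), as it did with limma voom (0.0926) and when fitted on the 2 groups alone (0.0693).

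Cyp7b1 encodes oxysterol 7-alpha-hydroxylase, which acts after Cyp27a1 and clears regulatory oxysterols; it spans chr3:18071950-18243338 on the minus strand, with 6 exons. It stood at 62.93, 32.37 and 30.93 CPM in WT, 145.1, 172.5 and 277.1 CPM in dHep, and 499.3, 658.2 and 565.7 CPM in the KO-labelled libraries. No library of one group overlapped another group, and the highest library (KO replicate 2) held 21.3 times the level of the lowest (WT replicate 3). Group means were 42.08 ± 18.07 CPM (SD, n = 3) in WT, 198.2 ± 69.66 CPM in dHep and 574.4 ± 79.84 CPM in the KO-labelled libraries. Cyp7b1 rose 4.71-fold in dHep against WT (log2 difference 2.24 ± 0.32, edgeR adjusted p = 0.00198) and 13.7-fold in the KO-labelled libraries (3.77 ± 0.34, edgeR adjusted p = 0.000171). Both rises passed under 17 of 17 alternatives, with adjusted p of 7.38e-12 to 0.0141 for the first and 2.32e-33 to 0.00175 for the second. The KO-labelled libraries also exceeded dHep 2.9-fold (log2 difference 1.54 ± 0.31, edgeR adjusted p = 0.0176). That call ended without KO replicate 2 (edgeR adjusted p = 0.0683), KO replicate 3 (0.063) or dHep replicate 2 (0.0534), within a range over alternatives of 1.63e-05 to 0.0683.

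Cyp7b1 is more abundant in male than in female liver, so a list of male-biased genes was set beside it. The 15 male-biased genes listed for this comparison summed to 3780 to 7424 CPM in WT, 10590 to 17490 CPM in dHep and 28830 to 35820 CPM in the KO-labelled libraries. A large part of that sum came from Mup20 (2734 to 5413, 3136 to 7806 and 14360 to 18740 CPM) and Mup7 (3.278 to 73.48, 1866 to 3522 and 7255 to 9516 CPM), of the near-identical Mup family. Of these 15, 10 rose in dHep and 13 in the KO-labelled libraries against WT, and 0 fell in either, where 12.4% and 20.9% of all tested genes rose. Of the 15, 5 rose and 1 fell between the KO-labelled libraries and dHep, and 9 were not called. The gene that fell, named for that after its values were seen, was Serpina1e, at 1003 to 1212 CPM against 2808 to 3973 CPM in dHep. These 6 calls became 1 without KO replicate 2 or 3, and 3 without KO replicate 1, WT replicate 2, or dHep replicate 1 or 2. Within WT, replicate 1 was highest both in Cyp7b1 and in the summed list. Within dHep, replicate 1 was lowest in Cyp7b1 (145.1 CPM) and highest in the summed list (17490 CPM). Within the KO-labelled libraries, replicate 1 was lowest in both, while replicate 2 was highest in Cyp7b1 and replicate 3 in the summed list. Reads of Xist numbered 0 to 3 and those of the Y-linked gene Ddx3y 1080 to 2583 per library over all 9 libraries, 2 genes chosen after their values were seen. The part of the male-biased program in the Cyp7b1 values was not tested.

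Cyp27a1 encodes the mitochondrial sterol 27-hydroxylase and lies at chr1:74713574-74737890 on the plus strand, with 9 exons. It stood at 221.6, 178.2 and 181.6 CPM in WT, 279.3, 359.3 and 443.8 CPM in dHep, and 352.4, 360.5 and 330.9 CPM in the KO-labelled libraries. Every library of the other groups was above every WT library, and the KO-labelled libraries fell inside the dHep range. The rise was 1.86-fold in dHep (log2 difference 0.90 ± 0.17, edgeR adjusted p = 0.00567, range over 17 alternatives 7.73e-06 to 0.0349) and 1.8-fold in the KO-labelled libraries (0.84 ± 0.17, edgeR adjusted p = 0.00361, range 1.47e-05 to 0.0213). Between the KO-labelled libraries and dHep the difference was -0.05 with a 95% interval from -0.42 to 0.32, which did not pass (edgeR adjusted p = 0.862).

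Cyp8b1 encodes sterol 12-alpha-hydroxylase in a single exon at chr9:121914356-121916305, on the minus strand. Its promoter is shown because the gene is a known HNF4A target and HNF4A is in the study's title. The sequence is the 250 bases before the annotated start, from RefSeq (GRCm38.p6, the assembly of mm10), at chr9:121916306-121916555, minus strand. Capitals mark the letters CAAAGTCCA, a core form of the HNF4A motif.
Cyp8b1 promoter: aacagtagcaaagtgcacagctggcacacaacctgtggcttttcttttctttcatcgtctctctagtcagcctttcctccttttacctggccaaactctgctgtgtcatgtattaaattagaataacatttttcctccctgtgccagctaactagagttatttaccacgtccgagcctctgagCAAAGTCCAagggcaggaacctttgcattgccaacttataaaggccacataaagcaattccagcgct
The match starts 67 bases before the gene's start. Searched on both strands, these letters occur in 0.384% of 32851 mouse promoter windows of the same length; a match describes letters only.

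Cyp8b1 stood at 244.7, 294.5 and 319.1 CPM in WT, 137.8, 49.86 and 362.2 CPM in dHep, and 252, 272.5 and 203.3 CPM in the KO-labelled libraries. The dHep libraries held both the lowest and the highest value of all 9, a 7.26-fold range, against 1.3-fold in WT and 1.34-fold in the KO-labelled libraries. Neither difference from WT passed: it was -0.64 in dHep (95% interval -1.83 to 0.54, edgeR adjusted p = 0.403, range over alternatives 0.0208 to 0.69) and -0.24 in the KO-labelled libraries (-1.42 to 0.94, edgeR adjusted p = 0.739). Without dHep replicate 3, the fall in dHep was -1.61 and passed (edgeR adjusted p = 0.0208). The difference between the KO-labelled libraries and dHep was 0.41 (95% interval -0.78 to 1.59, edgeR adjusted p = 0.647, range 0.035 to 0.959), and without dHep replicate 3 it was 1.37 (0.035).

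The 4 hydroxylases changed their proportions when compared per length, as CPM divided by the exon length in kilobases (RPKM). Of their summed RPKM, Cyp7b1 made up 4.89 to 10.1% in the WT libraries, 21.1 to 22.4% in those of dHep and 41.6 to 47.4% in the KO-labelled ones. Cyp8b1 went the other way, from 43.6 to 56% in WT to 7.14 to 30.6% in dHep and 18.8 to 23.3% in the KO-labelled libraries. Cyp7a1 was the smallest share in every library except WT replicate 3 and dHep replicate 2, down to 1.1 to 2.34% in the KO-labelled ones. It reached 17.5% in dHep replicate 2, where Cyp8b1 was at 7.14%. In that library alone Cyp8b1 was below Cyp7a1, with a ratio of RPKM of 0.408, against 3.21 to 19.8 in the other 8. The ratio of Cyp7b1 to Cyp7a1 lay between 0.789 and 1.8 in WT, between 1.27 and 5.14 in dHep and between 20.2 and 43 in the KO-labelled libraries. These shares and ratios are descriptions of transcripts, with no test, and a share falls whenever another member rises.

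**Figure D2:**
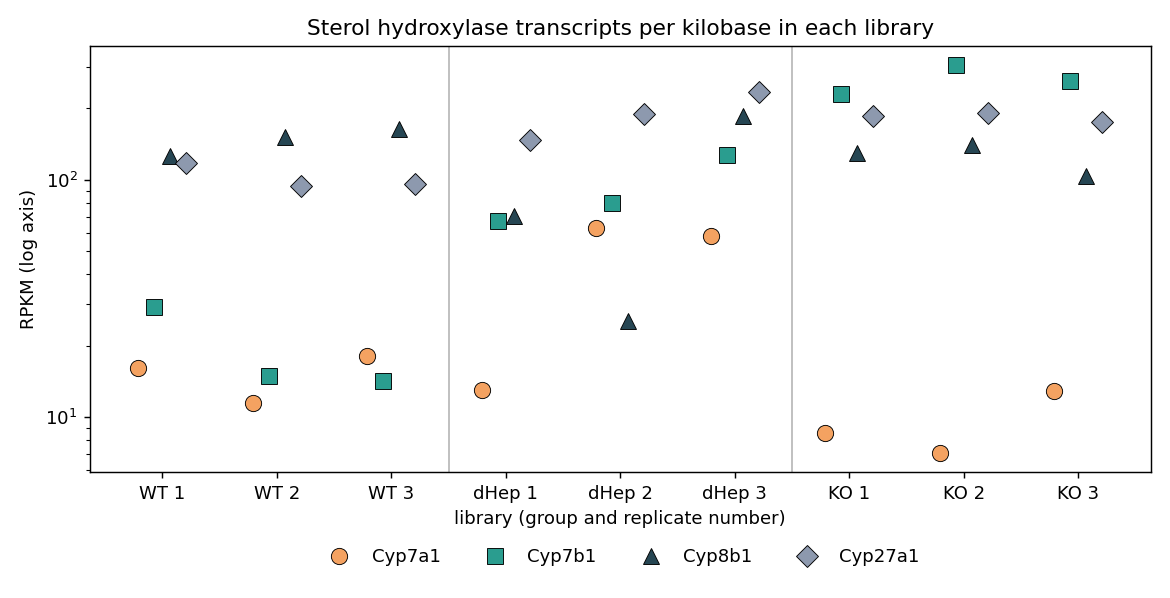
RPKM on a log axis of Cyp7a1, Cyp7b1, Cyp8b1 and Cyp27a1 in each of the 9 libraries, one symbol per gene. Cyp7b1 moves from beside Cyp7a1 in WT (19.43 and 15.26 RPKM on average) to the top in the KO-labelled libraries (265.2 RPKM), and Cyp8b1 falls below Cyp7a1 in dHep replicate 2 alone.

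The enzymes that reshape the sterol ring went in opposite directions in the KO-labelled libraries. Hsd3b7, the 3-beta-hydroxy-C27-steroid dehydrogenase at chr7:127800609-127803802 (plus strand, 7 exons), stood at 514.8, 434.2 and 435.2 CPM in WT, 743.5, 307.4 and 560.5 CPM in dHep, and 890.1, 846.8 and 788.7 CPM in the KO-labelled libraries. The KO-labelled libraries were above all others, and dHep replicate 2 was below every WT library while the other dHep libraries were above. Hsd3b7 rose 1.83-fold in the KO-labelled libraries against WT (log2 difference 0.87 ± 0.26, edgeR adjusted p = 0.0241, range over alternatives 0.00023 to 0.0823). The call ended without KO replicate 1 (edgeR adjusted p = 0.0588), KO replicate 2 (0.0647), KO replicate 3 (0.0525), WT replicate 2 (0.0823) or WT replicate 3 (0.0812). In dHep against WT the difference was 0.22 (95% interval -0.36 to 0.80, edgeR adjusted p = 0.57, range 0.0383 to 0.803), and it passed without dHep replicate 2 (0.50, edgeR adjusted p = 0.0383) or without that library and WT replicate 1 (0.58, 0.0447). Between the KO-labelled libraries and dHep it was 0.65 (95% interval 0.06 to 1.23) and did not pass (edgeR adjusted p = 0.141, range 0.0346 to 0.275), except without dHep replicate 1 (0.96, edgeR adjusted p = 0.0346).

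Akr1d1 encodes the 5-beta-reductase that bends the sterol ring into the form bile acids share, and lies at chr6:37530173-37568815 (plus strand, 9 exons). It stood at 210.3, 268 and 224.4 CPM in WT, 279.3, 391.8 and 383.3 CPM in dHep, and 170.1, 129.9 and 172.7 CPM in the KO-labelled libraries. The 3 groups did not overlap: dHep was above WT, and the KO-labelled libraries were below it. The difference between the KO-labelled libraries and dHep, 2.23-fold lower in the former (log2 difference -1.16 ± 0.17, edgeR adjusted p = 0.00522), passed under 17 of 17 alternatives (range 1.16e-08 to 0.0282). The rise in dHep against WT was 1.5-fold (0.59 ± 0.17, edgeR adjusted p = 0.0325) and did not pass under 8 of 17 alternatives (range 0.00516 to 0.176), among them without dHep replicate 2 (0.0681) or 3 (0.0801), WT replicate 1 (0.115), 2 (0.0524) or 3 (0.116), or both WT replicate 1 and dHep replicate 2 (0.176). The fall in the KO-labelled libraries against WT was 1.49-fold (-0.57 ± 0.17, edgeR adjusted p = 0.0219, range 0.0025 to 0.0905), and it ended without KO replicate 2 (0.0852), WT replicate 2 (0.0905) or WT replicate 3 (0.0513).

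Conjugation takes 2 steps, the coenzyme A ligase Slc27a5 and then the amino acid transferase Baat. Slc27a5, at chr7:12988346-12998192 (minus strand, 10 exons), stood at 669.8, 649.2 and 571.5 CPM in WT, 693.3, 1232 and 1478 CPM in dHep, and 945.9, 800 and 898.4 CPM in the KO-labelled libraries. Every library of the other groups was above WT, dHep replicate 1 by the least. The rise in dHep was 1.8-fold (log2 difference 0.85 ± 0.24, edgeR adjusted p = 0.0303) and did not pass under 9 of 17 alternatives (range 0.00152 to 0.115), including the fits lacking KO replicate 3 (0.0517), dHep replicate 2 (0.0537) or 3 (0.0811), WT replicate 1 (0.0702), 2 (0.0908) or 3 (0.115), or both WT replicate 1 and dHep replicate 2 (0.0951). In the KO-labelled libraries the difference from WT, 0.48 (95% interval -0.05 to 1.02), did not pass (edgeR adjusted p = 0.125, range 0.0034 to 0.286). It passed with only those 2 groups in the fit (edgeR adjusted p = 0.0034), with limma voom (0.00774) and without dHep replicate 1 (0.011). Against dHep the KO-labelled libraries differed by -0.36 (95% interval -0.90 to 0.17, edgeR adjusted p = 0.34), and without dHep replicate 1 by -0.62 (0.0213; range 0.0213 to 0.706).

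Baat, at chr4:49489418-49506558 (minus strand, 4 exons), varied least of the 10 over the 9 libraries, by 1.52-fold. It stood at 337.4, 316.6 and 315.3 CPM in WT, 275.6, 321.7 and 418.4 CPM in dHep, and 389.6, 369.6 and 387.8 CPM in the KO-labelled libraries. The dHep libraries spanned all the others, and the KO-labelled libraries were all above WT. The differences from WT were 0.07 in dHep (95% interval -0.26 to 0.39, edgeR adjusted p = 0.764) and 0.24 in the KO-labelled libraries (-0.08 to 0.57, edgeR adjusted p = 0.196, range 0.0148 to 0.357), and neither passed. The latter passed with only those 2 groups in the fit (edgeR adjusted p = 0.0148), with limma voom (0.0186) and without dHep replicate 3 (0.0461). Between the KO-labelled libraries and dHep the difference was 0.18 (95% interval -0.15 to 0.50, edgeR adjusted p = 0.453, range 0.0368 to 0.823), passing only without dHep replicate 3 (0.0368).

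Nr1h4 encodes FXR, the bile acid receptor, and lies at chr10:89454234-89533622 (minus strand, 11 exons). It stood at 135.3, 135.1 and 147 CPM in WT, 102.2, 170.5 and 191.7 CPM in dHep, and 163.7, 123.1 and 139.4 CPM in the KO-labelled libraries. The groups overlapped, and the means were 139.1 ± 6.84, 154.8 ± 46.8 and 142 ± 20.4 CPM (SD, n = 3). Nr1h4 passed in no comparison under any of the 17 alternatives. The 95% intervals were -0.31 to 0.61 in dHep against WT (edgeR adjusted p = 0.617), -0.43 to 0.49 in the KO-labelled libraries against WT (0.916) and -0.58 to 0.34 between the KO-labelled libraries and dHep (0.729).

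Nr0b2 encodes SHP, the corepressor that FXR induces, and lies at chr4:133553390-133556536 (plus strand, 2 exons). Its promoter is shown because SHP is a target of the nuclear receptor NR5A2 as well as of FXR. The sequence is the RefSeq window (GRCm38.p6) at chr4:133553126-133553375, plus strand. Capitals mark the hexamer TCAAGG, the first letters of the NR5A2 motif, which starts 68 and 35 bases before the RefSeq start.
Nr0b2 promoter: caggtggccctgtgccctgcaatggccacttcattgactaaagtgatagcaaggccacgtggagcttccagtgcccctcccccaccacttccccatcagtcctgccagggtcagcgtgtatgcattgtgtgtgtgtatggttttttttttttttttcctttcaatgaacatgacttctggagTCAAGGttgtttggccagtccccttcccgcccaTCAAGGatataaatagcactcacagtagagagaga
On either strand the hexamer occurs at least once in 12.5% of the 32851 windows. An exact inverted repeat of the hexamer AGGTCA with 1 base between, the kind of site that FXR binds, was not in this window. It occurs in only 0.00609% of all windows, so its absence here cannot bear on FXR binding, which was not tested.

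Nr0b2 had the lowest mean CPM of the 10 in each group, at 6.082, 16.67 and 15.04 CPM in WT, 23.2, 17.65 and 61.09 CPM in dHep, and 53.99, 15.41 and 20.42 CPM in the KO-labelled libraries. dHep libraries were all above WT, though dHep replicate 2 by little, and the KO-labelled libraries overlapped both. One library in each of these groups was far above its other 2: dHep replicate 3 and KO replicate 1, the library with intestinal transcripts. Without KO replicate 1 the difference of the KO-labelled libraries from WT was 0.52 (edgeR adjusted p = 0.48) and from dHep -0.92 (edgeR adjusted p = 0.336; range 0.336 to 0.983), and the part of the intestinal RNA in it was not tested. The difference from WT was 1.43 in dHep (95% interval 0.08 to 2.77, edgeR adjusted p = 0.113, range over alternatives 0.0609 to 0.408) and 1.25 in the KO-labelled libraries (-0.09 to 2.59, edgeR adjusted p = 0.118, range 0.0679 to 0.48), and neither passed under any alternative. Between the KO-labelled libraries and dHep it was -0.18 (95% interval -1.49 to 1.14, edgeR adjusted p = 0.868).

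**Figure D3:**
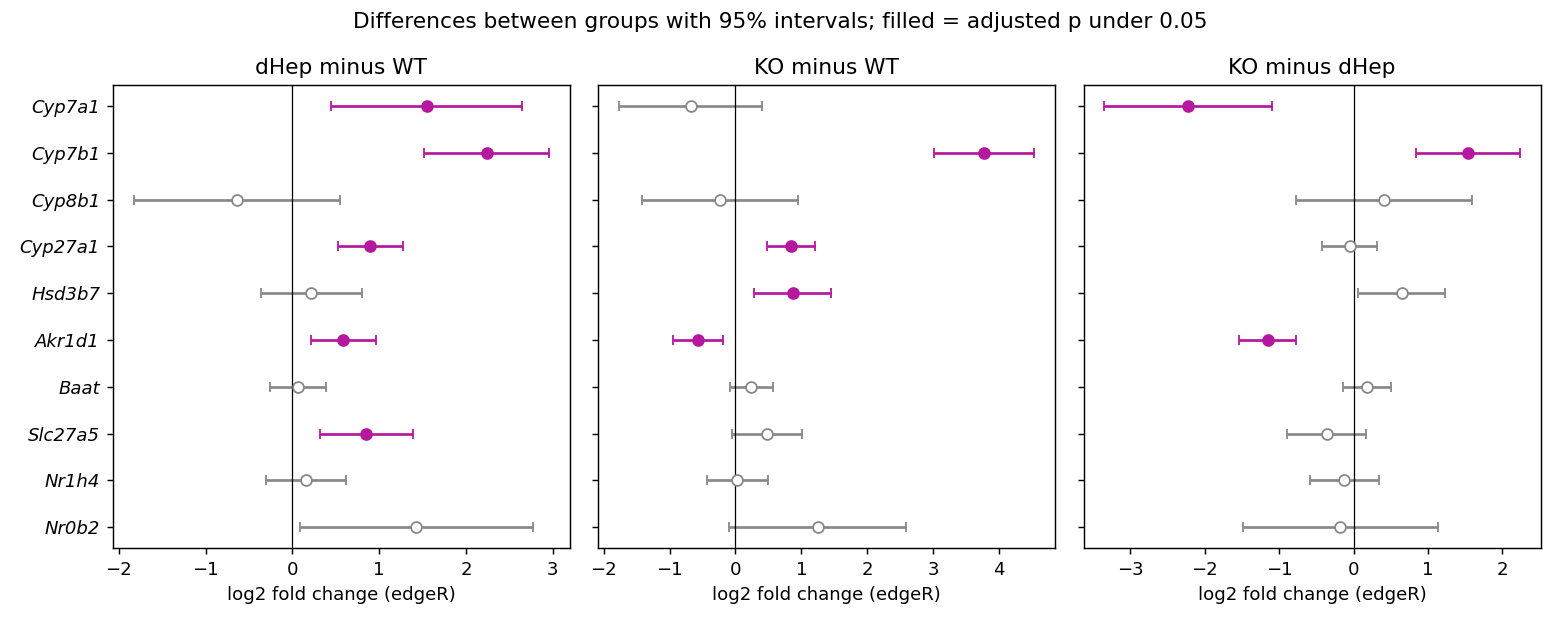
Log2 fold change of each gene (horizontal axes, one scale per panel) with its 95% interval in the 3 comparisons; filled points have an edgeR adjusted p under 0.05. The filled points number 5 of 10 in dHep minus WT, 4 of 10 in KO minus WT and 3 of 10 in KO minus dHep, and the widest intervals are those of Cyp7a1, Cyp8b1 and Nr0b2.

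Groups that did not overlap were counted besides the calls. In dHep against WT, 5 of 10 members did not overlap (43.4% of all tested genes), in the KO-labelled libraries against WT 6 of 10 (66.3%), and between the KO-labelled libraries and dHep 4 of 10 (26.5%). The first 2 of these shares are near their backgrounds.

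Most members varied more among the dHep mice than among the WT mice. The coefficient of variation (CV, the SD as a percent of the mean) was higher in dHep than in WT for 9 of 10 members, the exception being Cyp7b1 (35.1% in dHep, 42.9% in WT). It was 87.9% in dHep against 13.2% in WT for Cyp8b1, and 61.5% against 22.3% for Cyp7a1. All tested genes shared this order, with a median CV of 6.83% in WT, 18.1% in dHep and 10.3% in the KO-labelled libraries. Among the dHep libraries, replicate 1 was lowest in 7 members and replicate 3 highest in 7, while replicate 2 was lowest in Cyp8b1, Hsd3b7 and Nr0b2 and highest in Cyp7a1 and Akr1d1. The dHep mice thus did not hold one order over the pathway. The edgeR fit shares its estimate of the spread over all 3 groups.

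Levels of the members within WT were ordered per length. Mean RPKM was 270.5 for Slc27a5, 253.1 for Hsd3b7, 166 for Baat, 146.7 for Cyp8b1, 102.6 for Cyp27a1, 86.78 for Akr1d1, 59.46 for Nr1h4, 19.43 for Cyp7b1, 15.26 for Cyp7a1 and 11.27 for Nr0b2. Library ranges overlapped between the neighbours Slc27a5 and Hsd3b7, Baat and Cyp8b1, Cyp27a1 and Akr1d1, Cyp7b1 and Cyp7a1, and Cyp7a1 and Nr0b2, so those orders were within the spread. Cyp7b1 moved from rank 8 of 10 in WT to 7 in dHep and 3 in the KO-labelled libraries, where Hsd3b7 (461.8 RPKM) and Slc27a5 (378.3 RPKM) alone were above its 265.2 RPKM. Cyp7a1 was last there, at 9.54 RPKM.

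The genes most like 4 of the members over the 9 libraries were taken by the smallest root mean square difference of centred log2 CPM, among 11822 genes. For Cyp7a1 they were Por (0.304), which encodes the electron donor of microsomal cytochromes P450, the cytochrome P450 gene Cyp2a5 (0.306) and Blnk (0.398). Por stood at 122.9, 163.9 and 127.9 CPM in WT and 105.9, 719.9 and 504.1 CPM in dHep, with replicates 2 and 3 high as for Cyp7a1. For Cyp7b1 they were the major urinary protein genes Mup21 (0.304) and Mup13 (0.365), members of a near-identical family whose reads may be shared, and Tmeff2 (0.373). Tmeff2 stood at 0.03563 to 0.1502 CPM in WT, 0.3209 to 0.6865 CPM in dHep and 2.539 to 2.983 CPM in the KO-labelled libraries. It met the required mean of at least 1 CPM only through the KO-labelled libraries, so its likeness is partly set by that filter. For Cyp8b1 they were Tor3a (0.281), the acyltransferase gene Acnat2 (0.311) and Insig2 (0.327), a brake on sterol synthesis, and all 3 had their lowest value in dHep replicate 2. Insig2 stood at 347.7, 362 and 443.2 CPM in WT and 274.8, 74.12 and 296.7 CPM in dHep. For Nr0b2 they were G0s2 (0.34), an inhibitor of lipolysis, Efna1 (0.461) and Gdf15 (0.494). Among the members themselves, Baat with Nr1h4 (0.197) and Cyp27a1 with Slc27a5 (0.222) were the closest pairs.

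The other enzymes of bile acid synthesis and metabolism moved in both directions. Of 18 listed, 16 were tested: 3 rose and 2 fell in dHep against WT, 5 rose and 4 fell in the KO-labelled libraries against WT, and 2 rose and 2 fell between the KO-labelled libraries and dHep. Over all tested genes 24.3%, 43% and 9.62% passed, in that order. The counts against WT are not far from these shares and say little about the list. Cyp2c70, which makes muricholic acids, stood at 119 to 135.1 CPM in WT, 326.6 to 603.1 CPM in dHep and 327.2 to 576.8 CPM in the KO-labelled libraries, and rose against WT by 1.96 ± 0.26 (edgeR adjusted p = 0.00138) and 1.80 ± 0.26 (0.000858). Amacr, the racemase of side-chain shortening, rose by 0.88 ± 0.16 (edgeR adjusted p = 0.00566) and 1.28 ± 0.16 (0.000563). Acox2, the peroxisomal oxidase of the same step, stood at 220.9 to 243.1 CPM in WT, 163.2 to 249.5 CPM in dHep and 418.3 to 494.8 CPM in the KO-labelled libraries. It rose there against WT (0.98 ± 0.16, edgeR adjusted p = 0.00159) and against dHep (1.04 ± 0.16, edgeR adjusted p = 0.00648). Cyp3a11, which hydroxylates bile acids and drugs, fell from 1914 to 2121 CPM in WT to 383.8 to 761.2 CPM in dHep and 488.4 to 611.1 CPM in the KO-labelled libraries, log2 differences of -1.83 ± 0.23 and -1.91 ± 0.23 (edgeR adjusted p = 0.00109 and 0.00044). Akr1c6, an aldo-keto reductase of steroids, rose in dHep (0.74 ± 0.16, edgeR adjusted p = 0.0107) and in the KO-labelled libraries (0.83 ± 0.16, edgeR adjusted p = 0.00328). Its call in dHep did not hold when WT replicate 2 (edgeR adjusted p = 0.0544) or 3 was left out (0.0586; range 4.57e-06 to 0.0586). Ephx1, the microsomal epoxide hydrolase, fell in dHep (-1.37 ± 0.27, edgeR adjusted p = 0.00704), with -0.05 in the KO-labelled libraries (edgeR adjusted p = 0.882). Cyp46a1, cholesterol 24-hydroxylase, fell in the KO-labelled libraries (-1.16 ± 0.30, edgeR adjusted p = 0.0123), with -0.67 in dHep (edgeR adjusted p = 0.12). Each call against WT given here other than that of Akr1c6 in dHep, and that of Acox2 against dHep, passed under all 17 alternatives. The 4 calls between the KO-labelled libraries and dHep became 8 without dHep replicate 3, 2 without dHep replicate 2 or without both it and WT replicate 1, and 1 without KO replicate 2 or KO replicate 3.

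Regulators of the pathway and partners of its signal were listed besides, and their count in the KO-labelled libraries against WT is near the background. Of 18 genes, 16 were tested: 5 rose and 0 fell in dHep against WT, 5 rose and 2 fell in the KO-labelled libraries against WT, and 1 rose and 2 fell between the KO-labelled libraries and dHep. All tested genes passed in 24.3%, 43% and 9.62%, in that order, with 12.4%, 20.9% and 4.23% that rose. The counts in the other comparisons are of few genes and moved with the settings and libraries given next. The 5 calls in dHep were 8 with DESeq2 and 3 with no low-count filter or with only the 2 groups in the fit; the 7 in the KO-labelled libraries were 13 with limma voom and 11 with only the 2 groups; and the 3 between them were 5 with DESeq2 and 1 with only the 2 groups. By library, the 5 calls in dHep became 2 without WT replicate 1, 0 without WT replicate 2 or WT replicate 3, and 3 without KO replicate 2 or KO replicate 3. The 7 calls in the KO-labelled libraries became 4 without WT replicate 2, WT replicate 3 or KO replicate 2, and the 3 calls between the KO-labelled libraries and dHep became 1 without KO replicate 2, without KO replicate 3 or with both WT replicate 1 and dHep replicate 2 left out. Fgf15, which the ileum makes, and the bile acid receptor gene Gpbar1 had 0 reads in all 9 libraries.

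Fgfr4, the hepatocyte receptor of Fgf15, stood at 21.51, 19.37 and 19.53 CPM in WT, 32.22, 26.43 and 26.67 CPM in dHep, and 45.22, 46.42 and 43.56 CPM in the KO-labelled libraries. The 3 groups rose in steps without overlap. The rise in the KO-labelled libraries was 1.16 ± 0.11 against WT (edgeR adjusted p = 0.000207) and 0.66 ± 0.11 against dHep (edgeR adjusted p = 0.00881), both under all 17 alternatives. In dHep against WT it was 0.50 ± 0.11 (edgeR adjusted p = 0.0118, range 0.00048 to 0.0549) and ended without WT replicate 2 (0.0545) or WT replicate 3 (0.0549). Nr1h3, the oxysterol receptor LXR alpha, rose in the KO-labelled libraries against WT (0.61 ± 0.12, edgeR adjusted p = 0.00299), where Ppargc1a, a coactivator of the fasting response, and Foxo1 fell (-1.11 ± 0.20 and -0.99 ± 0.21, edgeR adjusted p = 0.00256 and 0.00512). In dHep these 3 genes differed from WT by 0.47, -0.13 and -0.08 (edgeR adjusted p = 0.0177, 0.65 and 0.801), and the first call ended without WT replicate 2 (0.0716) or WT replicate 3 (0.0869; range 0.00373 to 0.0869). Hnf4a stood at 488.2, 476.1 and 496.6 CPM in WT, 577.3, 699 and 539.1 CPM in dHep, and 631.7, 545.1 and 647.7 CPM in the KO-labelled libraries. Each Hnf4a value outside WT was above WT, but the differences of 0.31 ± 0.13 and 0.32 ± 0.13 did not pass (edgeR adjusted p = 0.105 and 0.0692; ranges 0.0335 to 0.353 and 0.00398 to 0.193). In dHep the difference passed under 1 of 17 alternatives, DESeq2 (adjusted p = 0.0335). In the KO-labelled libraries it passed under 5 of 17. These were DESeq2 (adjusted p = 0.0187), limma voom (0.00398), edgeR with only the 2 groups (0.0121), and edgeR without dHep replicate 2 (0.0351) or 3 (0.0373).

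Of 13 transporters of bile acids and bile lipids listed, 11 were in the table and tested: 2 rose and 4 fell in dHep against WT, 3 rose and 3 fell in the KO-labelled libraries against WT, and 2 rose and 0 fell between the KO-labelled libraries and dHep. The shares of all tested genes that passed were 24.3%, 43% and 9.62%, in that order. The count in the KO-labelled libraries against WT is not far from its share. The 6 calls in dHep became 3 without WT replicate 2 or WT replicate 3, and the 2 calls between the KO-labelled libraries and dHep became 4 without dHep replicate 3 and 1 without KO replicate 3 or with both WT replicate 1 and dHep replicate 2 left out. Slc10a1, the main uptake carrier of conjugated bile acids (NTCP), stood at 274.3 to 393 CPM in WT, 511.1 to 782.5 CPM in dHep and 654.1 to 803.7 CPM in the KO-labelled libraries. It rose by 1.03 ± 0.19 (edgeR adjusted p = 0.00574) and 1.12 ± 0.19 (0.00183), and the groups did not overlap WT. Slco1a1, an uptake carrier that is also on the male-biased list, stood at 3.991 to 38.07 CPM in WT and at 549.6 to 898.3 CPM in the other 6 libraries. Slc10a2, the sodium-dependent carrier of ileum and bile ducts, was 30 to 36.48 CPM in WT, 19.15 to 36.06 CPM in dHep and 56.43 to 94.91 CPM in the KO-labelled libraries, and rose there against WT (1.23 ± 0.24, edgeR adjusted p = 0.00374) and dHep (1.53 ± 0.24, edgeR adjusted p = 0.00729). Without KO replicate 1 these differences were 1.42 (edgeR adjusted p = 0.00299) and 1.72 (0.00649), within ranges of 6.01e-06 to 0.0207 and 8.6e-08 to 0.0346. Cholangiocyte markers (10 genes) summed to 140.9 to 210.3, 63.3 to 74.84 and 84.29 to 136.1 CPM in WT, dHep and the KO-labelled libraries, and 1 of the 10 had 0 reads in the KO-labelled libraries; their part in Slc10a2 was not tested. Abcb4, the phospholipid exporter of bile, fell in dHep (-0.88 ± 0.11, edgeR adjusted p = 0.001), with -0.27 ± 0.11 in the KO-labelled libraries (edgeR adjusted p = 0.0685). Abcc4 and Abcc2, exporters of conjugates, fell in the KO-labelled libraries (-2.74 ± 0.42 and -0.75 ± 0.18, edgeR adjusted p = 0.00122 and 0.0082). Both also fell in dHep (-1.48 ± 0.39 and -0.58 ± 0.18, edgeR adjusted p = 0.0237 and 0.0394). In dHep the Abcc4 call did not hold when dHep replicate 1 (edgeR adjusted p = 0.0682) or 3 (0.0692) or WT replicate 2 (0.0852) or 3 (0.0991) was left out, or with limma voom (0.0506), in a range of 0.00169 to 0.0991. The Abcc2 call did not hold when KO replicate 3 (edgeR adjusted p = 0.0593), dHep replicate 1 (0.0538) or 3 (0.0971), WT replicate 1 (0.101), 2 (0.106) or 3 (0.104), or both WT replicate 1 and dHep replicate 2 (0.077) were left out, in a range of 0.00586 to 0.106. Abcb11, the bile salt export pump, stood at 544.4 to 688.1 CPM in WT, 403.5 to 634.1 CPM in dHep and 685.3 to 785.6 CPM in the KO-labelled libraries, and its difference passed in no comparison (edgeR adjusted p = 0.271, 0.194 and 0.0694).

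Lists for the clock, for zonation and for other cell types were summed in the same libraries, with all tested genes passing in 24.3%, 43% and 9.62% in dHep against WT, the KO-labelled libraries against WT and between the KO-labelled libraries and dHep. In the KO-labelled libraries against WT the clock and pericentral counts are near or below that share. Cyp7a1 follows the circadian clock, and 15 clock genes summed to 646.1 to 714.5 CPM in WT, 700.7 to 855.5 CPM in dHep and 374.1 to 579.5 CPM in the KO-labelled libraries. Of these, 4 rose and 0 fell in dHep against WT, 2 rose and 6 fell in the KO-labelled libraries against WT, and 1 rose and 6 fell between the KO-labelled libraries and dHep, the comparison in which Cyp7a1 was lower. The 2 that rose in the KO-labelled libraries against WT were Arntl and Nfil3 (2.16 and 1.34, edgeR adjusted p = 0.00157 and 0.00579). The 6 that fell there were Nr1d2, Dbp, Tef, Hlf, Per1 and Per3, so the sum joins genes that moved in opposite directions. The 4 clock calls in dHep became 0 or 1 without any single WT library, 7 without dHep replicate 1, 2 without dHep replicate 3, and 1 with both WT replicate 1 and dHep replicate 2 left out. The 7 between the KO-labelled libraries and dHep became 11 without dHep replicate 1, 4 without KO replicate 2 or KO replicate 3, and 2 with that pair left out. Cyp7a1 is more abundant in pericentral than in periportal hepatocytes, and 12 pericentral genes summed to 8574 to 11460 CPM in WT, 14480 to 24780 CPM in dHep and 16970 to 17850 CPM in the KO-labelled libraries. Cyp2e1 alone made up most of that sum, at 4645 to 6533, 8241 to 15000 and 10250 to 11620 CPM in the same order. In dHep against WT, 7 of the 12 were not called. Among these, Glul, Rhbg and Slc13a3 had negative log2 differences of -0.23, -0.24 and -0.78 (edgeR adjusted p = 0.442, 0.734 and 0.095), and the others positive ones. Of these 12, 5 rose in dHep and 4 in the KO-labelled libraries against WT, and 0 fell in either, and the 5 became 3 without WT replicate 2 or WT replicate 3 and 8 with that pair left out. The sum of endothelial markers (10 genes, all with reads in each group) went down, from 464.9 to 517.5 CPM in WT to 320.2 to 430.9 CPM in dHep and 214.7 to 313.5 CPM in the KO-labelled libraries. Of these 10, 5 fell in dHep and 9 in the KO-labelled libraries against WT, and 0 rose in either. In dHep, Clec4g and Dnase1l3 differed from WT by 0.12 and 0.05 (edgeR adjusted p = 0.563 and 0.853). Kupffer and macrophage markers (9 genes) summed to 372.8 to 487.6, 220.1 to 401.3 and 86.87 to 169 CPM in the same order of groups, stellate cell markers (10 genes) to 629.6 to 705.8, 320.8 to 507.2 and 268.9 to 356.8 CPM, and intestinal markers (9 genes) to 385.1 to 486.9, 334.1 to 484.1 and 328.2 to 583.1 CPM. Fabp2 and Anpep, present in all 9 libraries, made up most of the intestinal sum, Fabp6 had 0 reads in all 9, and the highest sum was that of KO replicate 1. The part of the clock, of zonation or of the makeup of the tissue in the values of the members was not tested.

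**Figure D4:**
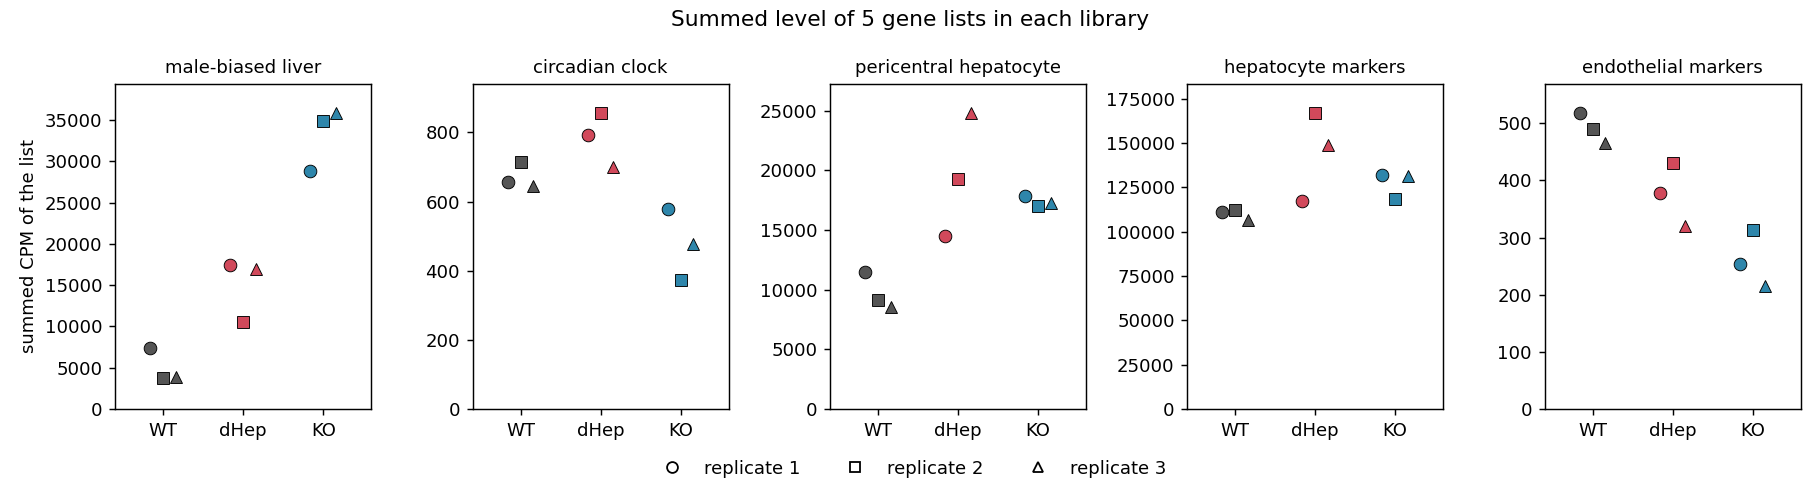
Summed CPM (vertical axes from 0, one scale per list) of 5 gene lists in each library, by group; points are libraries. The male-biased sum rises from WT to dHep to KO without overlap, the clock sum is lowest in KO and the endothelial sum falls in the same order as the male-biased sum rises.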

How the data were processed

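Counts of reads per gene for the 9 libraries were deposited by the authors in 1 table; per its file header they were made with featureCounts 1.6.2 with strand setting 2, and the exon length of each gene, another deposited column, came with them. The submitters' processing notes name mm10, HISAT2 2.1.0, FastQC, Subread and DESeq2. Every library had its own column, and libraries were grouped by title, 3 mice a group. Genes were kept by edgeR's filterByExpr (minimum count 10, minimum total 15) and tested by the quasi-likelihood test of edgeR 4.0.16 (R 4.3.3) over all 9 libraries, with TMM factors and Benjamini-Hochberg adjustment over 13141 genes. The tests were checked on simulated counts. Levels are TMM-scaled CPM; RPKM divides by exon length. The p-values cover the spread between mice only.

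The members and lists were chosen with earlier results of these data known. Named genes are the 10 members, Hnf4a, Fgfr4, the called genes of each pathway list with the smallest p (up to 3 per comparison and direction, mean of at least 1 CPM) and the 3 genes most like each of 4 members. Of the pathway genes, those that passed under every alternative in at least 1 comparison are printed, a choice made after values were seen. Abcb11, Xist, Ddx3y, Serpina1e, the 2 Mup genes and the intestinal genes of KO replicate 1, and the 14 promoter motifs, were also chosen after values or windows had been seen. So were Alb and the genes named from the clock and pericentral lists. Of the 10 members, 6 matched the RefSeq promoter table. Coordinates are mm10; no member shares exon bases with another gene of the table.

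Alternatives were median-of-ratios size factors, DESeq2 1.42.0, voom of limma 3.58.1 with quality weights, no filter, 1 CPM in 3 libraries, only the 2 compared groups, a replicate block and each library left out. A fit lacking both WT replicate 1 and dHep replicate 2 was chosen after seeing the data.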

Additional observations from a re-analysis of the deposited data

How the results depend on the processing

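Over the 10 members and 3 comparisons, 0 of the values under an alternative reversed a called direction. Called members in dHep against WT numbered 5, and 3 with limma voom, 3 with only the 2 groups, 2 with the replicate block, 3 lacking both WT replicate 1 and dHep replicate 2, and 2 to 5 with each library left out in turn. In KO against WT they numbered 4, and 7 when fitted on the 2 groups alone, which leaves out the dHep spread, and 2 to 6 with each library left out; between KO and dHep 3, and 1 to 5. Called genes between KO and dHep numbered 1264, and 2068 with DESeq2, 802 with limma voom, 342 with only the 2 groups and 495 lacking both WT replicate 1 and dHep replicate 2. With each library left out they ranged from 1359 to 4025 in dHep against WT, 3835 to 6547 in KO against WT and 386 to 2809 between KO and dHep; the cause was not tested. Replicate numbers did not pair the libraries: same-numbered libraries had correlations of deviations from -0.272 to 0.0273. With the replicate block, called genes numbered 2781, 5292 and 954, and called members 2, 4 and 3; between KO and dHep, male-biased calls were 3 in place of 6 and transporter calls 4 in place of 2. Size factors and both low-count filters left the member counts at 5, 4 and 3. Nr0b2, the member with the fewest reads, had 162 to 1246 per library, and what limits its calls was not tested.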
